A study of Homo sapiens with 6 samples.

Results

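The transcripts of 32 enzymes, carriers and related proteins of serine synthesis, one-carbon folate metabolism, the methionine cycle and transsulfuration were described in HK-2 cells exposed to oxidized low-density lipoprotein (OX-LDL). HK-2 cells descend from the epithelium of human kidney tubules and were immortalized. The members were listed by name, with earlier results of these data known, so their share of calls is a description of this list, and all 32 were found among the 58825 genes of the deposited table, each by an exact match of its symbol. RNA-seq libraries came from 3 untreated Control samples and from 3 samples kept for 48 h with OX-LDL at 25 μg/ml, all of the same unmodified line. The study's methods describe a period in low-serum medium before OX-LDL and name no vehicle for the Control cells, and the Control labels give no time. The study's methods state that its cell experiments were repeated independently but do not tie this to the libraries, and the labels do not say that the 3 libraries of a group came from separate cultures. If they did not, the p-values measure the spread between these libraries, which may be technical.

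Serine is made from an intermediate of glycolysis by PHGDH, PSAT1 and PSPH. The serine hydroxymethyltransferases then pass a carbon of serine to folate and leave glycine, SHMT2 in the mitochondrion and SHMT1 mainly in the cytosol. The mitochondrial folate enzymes oxidize this carbon to formate, which the cytosolic enzymes use for purines and thymidylate and to remethylate homocysteine to methionine. Homocysteine can instead be joined to serine by CBS and cleaved to cysteine by CTH, the route called transsulfuration. The proximal tubule of the kidney is known as a site of serine synthesis in the body.

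The libraries held between 62561347 and 76797607 estimated counts, of which about 4 stood for 1 read pair, so the detection limit in a library was set at 12 counts, or 3 read pairs. Of 8 kidney tubular epithelial markers, EPCAM was at 48.6 FPKM (fragments per kilobase of transcript, scaled to library size) or more in each library, and CDH1 was at 0.144 FPKM or less. In that list, PAX8, a transcription factor of kidney epithelium, fell from 46.6 ± 12.9 to 19.4 ± 4.17 FPKM in OX-LDL (log2 fold change -1.23, adjusted p = 0.0182, edgeR), and KRT8 and CDH6 rose (log2 fold changes 0.83 and 1.36, adjusted p = 0.0116 and 0.00475). Of 9 proximal tubule markers, LRP2 and SLC22A6 had 0 counts in all 6 libraries, and MIOX fell from 13.5 ± 1.19 to 7.18 ± 1.68 FPKM (log2 fold change -0.87, adjusted p = 0.0226). GGT1 was at 3.13, 18.2 and 3.88 FPKM in Control and at 15.8, 17.8 and 16.1 in OX-LDL and did not pass the test. The deposited table has 2 entries named GGT1, and only the first was read, here and in the sum below. The calls of PAX8 and MIOX each depended on single libraries, with adjusted p-values of 0.0541 to 0.0838 where they were lost. Both calls were lost on omitting replicate 2 of Control or replicates 1 or 3 of OX-LDL, that of PAX8 also on omitting replicate 1 of Control, and that of MIOX on omitting replicate 3 of Control. The summed level of 5 leukocyte markers was higher, at 9.16 to 14.0 FPKM in OX-LDL against 3.11 to 7.74 in Control. That sum was almost entirely CD68, a lysosomal protein, and PTPRC, which defines leukocytes, was at 8 counts in 1 library and at 0 in the others. The summed level was 185 to 217 FPKM in Control and 221 to 253 in OX-LDL for the 8 kidney tubular epithelial markers, and 15.5 to 33.2 and 21.8 to 26.9 for the 9 proximal tubule markers. The proximal tubule sum was almost entirely GGT1 and MIOX, and CUBN, AQP1, ANPEP and SLC34A1 were at 0.142 FPKM or less in each library. Mean FPKM was lower in OX-LDL for SLC5A2 (0.263 to 0.0679), PAX2 (0.5 to 0.244) and CDH16 (13.1 to 9.71). It was higher for KRT18 (39.4 to 58.3), and none of these genes passed the test. The part of these shifts in the results on the members was not tested.

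Of the 30 members tested, 9 changed in OX-LDL, all of them downwards, at an adjusted p-value under 0.05 (edgeR's quasi-likelihood test, Benjamini-Hochberg adjustment over 19510 genes). Of all genes tested, 15.3% changed, 7.42% downwards and 7.91% upwards, so the 30.0% of members that fell stand beside 7.42%, and the 0 members that rose beside 7.91%. The 9 genes were the 3 enzymes of serine synthesis (PHGDH, PSAT1 and PSPH), 4 of the mitochondrial folate pathway (SHMT2, MTHFD2, MTHFD1L and ALDH1L2) and both enzymes of transsulfuration (CBS and CTH). Their levels in OX-LDL were 16.1% (CTH) to 56.0% (MTHFD1L) of those in Control. Of the 30 members tested, 8 were called lower by more than 2-fold, beside 2.03% of all genes tested. Among only the genes that fell, these were 8 of 9 members and 396 of 1448 genes. None rose by more than 2-fold, beside 1.88% of all genes tested. None of the members of cytosolic folate, glycine cleavage, folate uptake or the methionine cycle passed the test. Without the multiple-test adjustment, 14 members had a p-value under 0.05, beside 5936 of the 19510 genes tested. With DESeq2, 12 members were lower and 1, GLDC, was higher, beside 2138 and 2292 of the 19510 genes. In these bulk samples, fewer cells with a transcript and less of it per cell cannot be told apart.

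**Figure D1:**
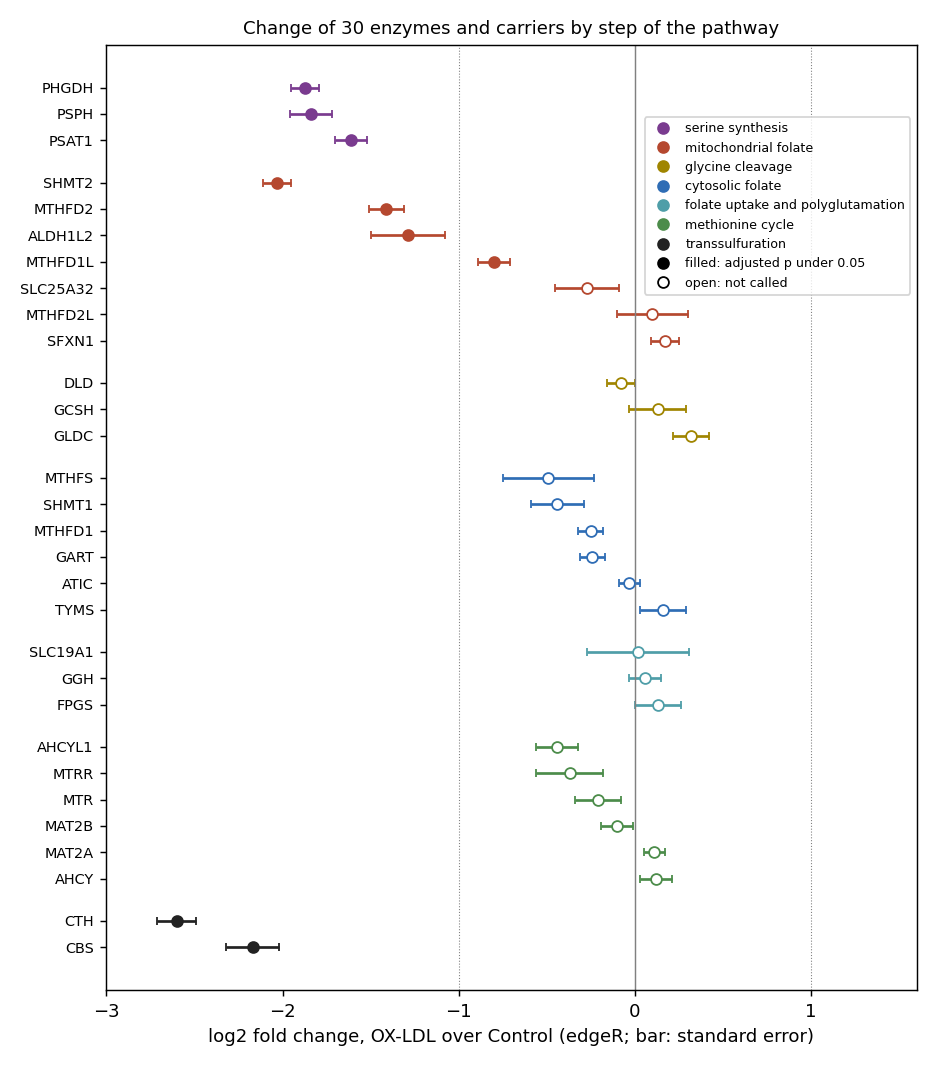
The log2 fold change of OX-LDL over Control is drawn on the horizontal axis for the 30 members tested, grouped by step, with bars for the standard error. Filled points are members with an adjusted p-value under 0.05, which lie between -2.60 (CTH) and -0.80 (MTHFD1L), while open points lie between -0.49 (MTHFS) and 0.32 (GLDC).

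The median log2 fold change was -0.24 over the 30 members and 0 over all genes tested. It was -1.84 for serine synthesis, -0.80 for mitochondrial folate and -2.38 for transsulfuration. It was -0.24 for cytosolic folate, -0.15 for the methionine cycle, 0.13 for glycine cleavage and 0.06 for folate uptake and polyglutamation. The direction for glycine cleavage rested on 1 library, since the median was -0.03 without Control replicate 1, and it was 0.29 without Control replicate 3. The median for uptake was 0.02 when replicate 1 of OX-LDL was omitted, 0.13 when replicate 3 of Control was, and 0.18 when replicate 2 of OX-LDL was. The 21 members that did not pass the test had a median of -0.03. Only 164 of the 19510 genes had a lower log2 fold change than CTH, and 303 and 368 lay below SHMT2 and PHGDH.

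In FPKM, the 3 libraries of OX-LDL lay below the 3 of Control for 16 members and above them for 2, against 20.5% and 16.8% of all genes tested. The 9 members that fell were among the 16. The other 7 were DLD, SHMT1, MTHFD1, GART, ATIC, MTRR and AHCYL1, and the 2 above were SFXN1 and GLDC.

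**Figure D2:**
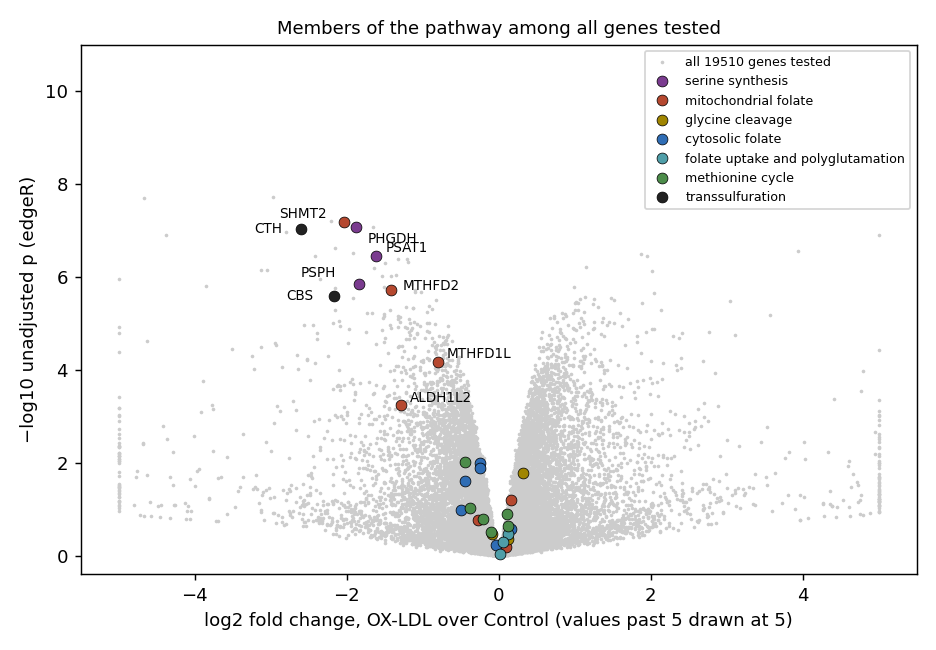
Each of the 19510 genes tested is a grey point, with the log2 fold change of OX-LDL over Control on the horizontal axis and -log10 of the unadjusted p-value on the vertical axis, and the members are coloured by step. The 9 members that fell are labelled and lie on the left, and the other members lie between -0.49 and 0.32 on the horizontal axis.

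The promoters of the members that fell by more than 2-fold are shown to give the sequence at an annotated start of each gene. RefSeq (GRCh38.p14) gave windows of 250 bases before to 50 after a start for 26 of the 32 members, including 5 of these 8. Windows were not used here for PSPH, SHMT2 and ALDH1L2. Some members, CBS and MTHFD1L among them, had several windows, and not all of these are printed. MTHFD1L, which fell by less than 2-fold, was added after its match to a motif was seen. Capitals mark a match to TGATGNAA or, on the other strand, TTGCATCA, letters known from amino acid response elements.
CTH, chr1:70411018-70411317, + strand: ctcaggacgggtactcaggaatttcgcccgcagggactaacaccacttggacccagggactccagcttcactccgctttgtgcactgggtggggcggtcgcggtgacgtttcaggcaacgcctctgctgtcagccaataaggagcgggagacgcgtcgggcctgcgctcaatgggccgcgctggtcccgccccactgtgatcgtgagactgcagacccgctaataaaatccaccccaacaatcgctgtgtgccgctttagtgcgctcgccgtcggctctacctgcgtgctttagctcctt
PHGDH, chr1:119711684-119711983, + strand: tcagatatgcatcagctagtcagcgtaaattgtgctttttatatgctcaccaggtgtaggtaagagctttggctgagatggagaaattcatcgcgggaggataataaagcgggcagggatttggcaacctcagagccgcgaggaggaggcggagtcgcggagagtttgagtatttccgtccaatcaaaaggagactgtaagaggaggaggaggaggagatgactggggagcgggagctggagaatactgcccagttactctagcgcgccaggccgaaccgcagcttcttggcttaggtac
PSAT1, chr9:78296875-78297174, + strand: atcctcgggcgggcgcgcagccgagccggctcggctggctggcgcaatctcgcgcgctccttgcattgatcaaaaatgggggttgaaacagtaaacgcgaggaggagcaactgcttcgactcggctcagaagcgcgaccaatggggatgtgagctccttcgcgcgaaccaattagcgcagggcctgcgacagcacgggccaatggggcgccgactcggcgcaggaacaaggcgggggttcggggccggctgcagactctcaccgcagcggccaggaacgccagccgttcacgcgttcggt
MTHFD2, chr2:74198365-74198664, + strand: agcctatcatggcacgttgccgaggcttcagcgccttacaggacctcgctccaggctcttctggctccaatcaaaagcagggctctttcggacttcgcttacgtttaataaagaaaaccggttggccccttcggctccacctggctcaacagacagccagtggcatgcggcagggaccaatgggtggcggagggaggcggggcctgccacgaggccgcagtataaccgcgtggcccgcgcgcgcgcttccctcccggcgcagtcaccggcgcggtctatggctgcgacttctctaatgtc
CBS, chr21:43076328-43076627, - strand: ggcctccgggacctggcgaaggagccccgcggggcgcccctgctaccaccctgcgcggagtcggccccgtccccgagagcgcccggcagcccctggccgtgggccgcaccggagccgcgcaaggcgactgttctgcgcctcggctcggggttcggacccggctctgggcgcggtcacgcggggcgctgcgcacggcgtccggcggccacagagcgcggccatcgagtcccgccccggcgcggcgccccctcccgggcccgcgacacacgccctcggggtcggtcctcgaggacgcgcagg
MTHFD1L, chr6:150866197-150866496, + strand: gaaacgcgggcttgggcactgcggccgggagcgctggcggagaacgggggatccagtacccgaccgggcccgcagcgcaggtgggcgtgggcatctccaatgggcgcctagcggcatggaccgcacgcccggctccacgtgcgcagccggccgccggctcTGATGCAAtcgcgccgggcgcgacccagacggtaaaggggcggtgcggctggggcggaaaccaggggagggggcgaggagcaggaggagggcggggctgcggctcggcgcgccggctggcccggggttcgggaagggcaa

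All windows of the 26 members were searched on both strands for TTGCATCA, for the wider TGATGNAA, which takes in the reverse complement of the first, and for CACGTG, an E-box. A member was counted as holding a motif if any of its windows did. Of the 6 members that fell and had a window, 1, MTHFD1L, held each of the 3 motifs. Its TGATGCAA lay at chr6:150866357-150866364 and its CACGTG at chr6:150866332-150866337. Of the 20 other members with a window, 0 held TTGCATCA or TGATGNAA, and 4 (ATIC, FPGS, MTHFD1 and SLC19A1) held CACGTG. Over 35116 windows of all genes, the shares were 0.866% for TTGCATCA, 3.62% for TGATGNAA and 7.26% for CACGTG. These are shares of single windows, so they are not on the same scale as the counts of members. The GC content of the printed windows ranged from 52.7% (PHGDH) to 80.7% (CBS), beside a median of 58.7% over all windows. The PHGDH window begins at chr1:119711684, far inside the span that the deposited table gives this gene, which begins at chr1:119648411. It may thus not lie at the start of the transcripts that were counted. The RefSeq starts of MTHFD1L, CTH and MTHFD2 also lie inside the spans of these genes, nearer to the edge. A match is a description of the letters and does not show a bound site.

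Serine synthesis was lower at each of its 3 steps. PHGDH (chr1:119648411-119744226, + strand), the dehydrogenase that commits 3-phosphoglycerate to serine, was at 26.6, 27.9 and 27.6 FPKM in the Control libraries and at 7.71, 6.62 and 7.63 in the OX-LDL libraries. PSAT1 (chr9:78297125-78330093, + strand), the aminotransferase of the pathway, was at 95.4, 85.1 and 94.8 FPKM in Control and at 30.0, 27.6 and 30.7 in OX-LDL. PSPH (chr7:56011051-56051467, - strand), the phosphatase that releases serine, was at 32.7, 43.4 and 35.1 FPKM in Control and at 10.4, 10.7 and 9.19 in OX-LDL. For each gene, the highest OX-LDL library was below the lowest Control library by a wide margin. No annotated gene of the table overlaps any of the 3.

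PHGDH fell from 27.4 ± 0.644 to 7.32 ± 0.606 FPKM (mean ± SD, n = 3), with a log2 fold change of -1.87 (SE 0.08, adjusted p = 0.000209). PSAT1 fell from 91.7 ± 5.79 to 29.5 ± 1.62 FPKM, for a log2 change of -1.61 (adjusted p = 0.000365). PSPH fell from 37.1 ± 5.61 to 10.1 ± 0.775 FPKM, for a log2 change of -1.84 (SE 0.12, adjusted p = 0.000791). Because FPKM is per length, the levels can be set side by side between genes. PSAT1 had the highest level of all 32 members in Control and the fifth highest in OX-LDL, while PHGDH moved from rank 10 to rank 20. The summed level of the 3 enzymes was 155, 156 and 157 FPKM in Control and 48.1, 44.9 and 47.5 FPKM in OX-LDL, which is 30.0% of Control. Leaving out any 1 library kept the 3 log2 fold changes between -1.92 and -1.56.

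**Figure D3:**
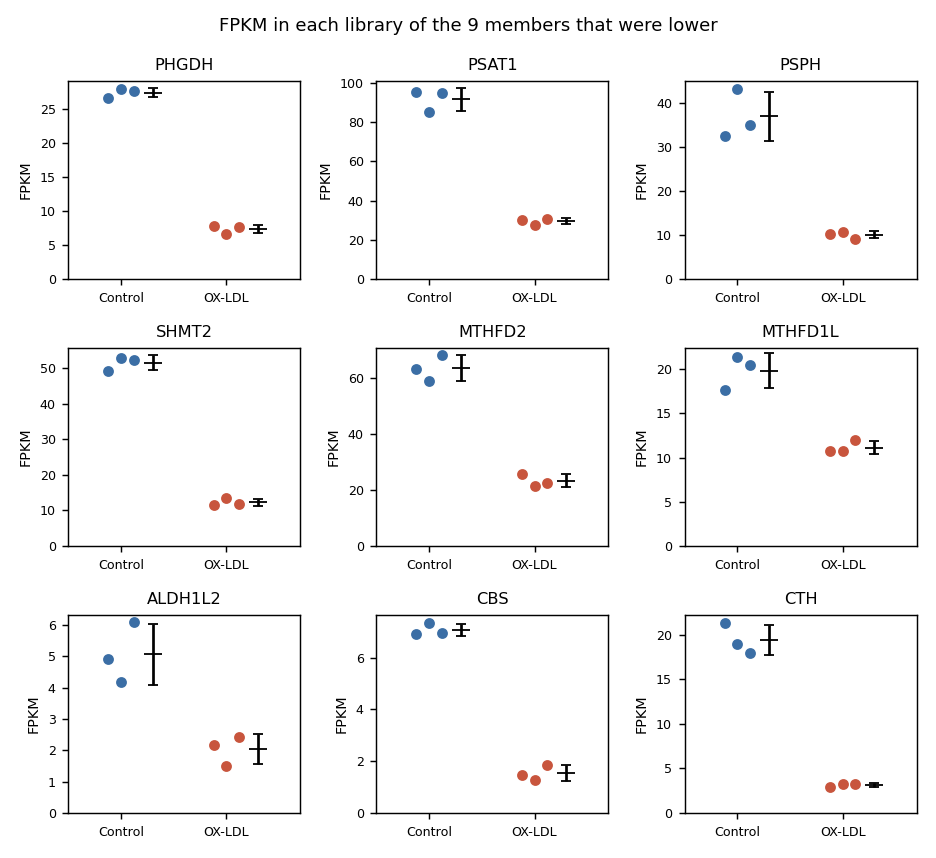
FPKM of the 9 members that fell, 1 panel for each gene, with a point for each library and the mean and SD beside each group (n = 3). In all panels the 3 OX-LDL libraries lie below the 3 Control libraries, and the gap is narrowest, relative to the level, for MTHFD1L and ALDH1L2.

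In the mitochondrial folate pathway, 4 of 7 members fell and 3 did not pass the test. SHMT2 (chr12:57229573-57234935, + strand), which makes glycine and methylene-folate from serine, was at 49.1, 53.0 and 52.4 FPKM in Control and at 11.6, 13.5 and 11.7 in OX-LDL. MTHFD2 (chr2:74198610-74215298, + strand), the dehydrogenase and cyclohydrolase that follows, was at 63.3, 59.0 and 68.5 FPKM in Control and at 25.9, 21.6 and 22.6 in OX-LDL. Both genes had a wide gap between the groups. MTHFD1L (chr6:150865549-151101887, + strand), the synthetase that releases formate, was at 17.6, 21.4 and 20.5 FPKM in Control and at 10.7, 10.7 and 11.9 in OX-LDL. ALDH1L2 (chr12:105019784-105084458, - strand), which oxidizes formyl-folate to carbon dioxide with gain of NADPH, was at 4.91, 4.18 and 6.09 FPKM in Control and at 2.17, 1.49 and 2.42 in OX-LDL. These groups were closer together but did not overlap.

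SHMT2 fell from 51.5 ± 2.08 to 12.3 ± 1.02 FPKM, for a log2 change of -2.03 (SE 0.08, adjusted p = 0.000209), and moved from rank 5 to rank 12 among the members. MTHFD2 fell from 63.6 ± 4.73 to 23.4 ± 2.25 FPKM, for a log2 change of -1.41 (SE 0.10, adjusted p = 0.000919). MTHFD1L fell from 19.8 ± 2.00 to 11.1 ± 0.715 FPKM, for a log2 change of -0.80 (SE 0.09, adjusted p = 0.00445). The fall of MTHFD1L was the smallest of the 9. ALDH1L2 fell from 5.06 ± 0.963 to 2.03 ± 0.479 FPKM, for a log2 change of -1.29 (SE 0.21, adjusted p = 0.0119), and its adjusted p reached 0.0446 without OX-LDL replicate 1. It overlaps C12orf45 on the other strand, which had up to 1093 counts in a library against 1288 or more for ALDH1L2, and the use of strand in the counting is not given in the sources used here. The genes that overlap SHMT2, MTHFD2 and MTHFD1L had at most 142, 10 and 58 counts in a library, against at least 3954, 9226 and 3966 for the members.

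The other 3 mitochondrial members did not pass the test. MTHFD2L, a second mitochondrial dehydrogenase of methylene-folate, was at 0.538, 0.822 and 0.834 FPKM in Control and at 0.691, 0.812 and 0.786 in OX-LDL, and the groups overlapped (log2 fold change 0.10, SE 0.20, adjusted p = 0.789). SFXN1, a serine carrier of the inner membrane, was at 7.45, 7.38 and 7.45 FPKM in Control and at 8.05, 7.70 and 8.84 in OX-LDL. Its OX-LDL libraries all lay above the Control libraries, with a log2 fold change of 0.17 (SE 0.08, adjusted p = 0.192). SLC25A32, a mitochondrial folate carrier, had a log2 fold change of -0.27 (SE 0.18, adjusted p = 0.367). On the other strand, SLC25A32 overlaps DCAF13, which had up to 10008 counts in a library against 2444 or more for SLC25A32. The summed level of the 7 members was 160 ± 7.68 FPKM in Control and 67.6 ± 3.61 in OX-LDL, or 42.2% of Control.

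Glycine cleavage, the mitochondrial system that splits glycine and loads its carbon onto folate, had 3 of 4 members tested and none called. GLDC, its decarboxylase, was at 1.59, 1.64 and 1.50 FPKM in Control and at 1.82, 1.94 and 2.03 in OX-LDL. The OX-LDL libraries lay above the Control libraries, with a log2 fold change of 0.32 (SE 0.10) and an adjusted p of 0.0813 with edgeR and of 0.0266 with DESeq2. DLD, the dehydrogenase it shares with the oxo-acid dehydrogenase complexes, was at 13.9, 13.9 and 14.3 FPKM in Control and at 11.9, 13.8 and 13.2 in OX-LDL (log2 fold change -0.08, adjusted p = 0.553). GCSH, the lipoyl carrier protein, had a log2 fold change of 0.13 (SE 0.16, adjusted p = 0.637), and its pseudogene copy GCSHP5 was at 10.5 to 12.6 FPKM, so reads of the pair may be split. AMT, the aminomethyltransferase, was under the minimum for testing at 0.0552 to 0.099 FPKM, or 29 to 54 counts in a library, and its groups overlapped. The summed level of this system was 22.7 ± 1.72 FPKM in Control and 22.5 ± 0.875 in OX-LDL.

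In the cytosolic folate pathway, 0 of 6 members tested were called. For 4 of them, all OX-LDL libraries lay below all Control libraries in FPKM, beside 20.5% of all genes tested. SHMT1 was at 10.8, 10.8 and 9.14 FPKM in Control and at 6.59, 9.13 and 6.46 in OX-LDL, where the second OX-LDL library was just below the lowest Control library. Its log2 fold change was -0.44 (SE 0.15, adjusted p = 0.107), and without OX-LDL replicate 2 it was -0.62 with an adjusted p of 0.0166. With all libraries, DESeq2 gave SHMT1 an adjusted p of 0.0495. SHMT1 overlaps SMCR8 on the other strand, which had up to 9812 counts in a library against 3548 or more for SHMT1. Since the use of strand in the counting is not given, the level of SHMT1 is uncertain. MTHFD1, which carries the 3 cytosolic activities of folate interconversion in 1 protein, was at 20.3, 21.8 and 20.6 FPKM in Control and at 17.0, 18.4 and 16.3 in OX-LDL. The log2 fold change was -0.25 (SE 0.07, adjusted p = 0.0592), and without OX-LDL replicate 2 it was -0.30 with an adjusted p of 0.0342. With all libraries, DESeq2 gave an adjusted p of 0.0413, and 5 of 14 alternative fits called MTHFD1 lower. All OX-LDL libraries lay below all Control libraries, by a margin of under 2 FPKM. MTHFS, which returns formyl-folate to the active pool, was at 8.00, 8.96 and 9.56 FPKM in Control and at 4.59, 4.91 and 8.89 in OX-LDL, where the third OX-LDL library lay among the Control libraries. Its log2 fold change was -0.49 (SE 0.26, adjusted p = 0.266), and without OX-LDL replicate 3 it was -0.86 with an adjusted p of 0.0328.

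None of the enzymes that use cytosolic folates passed the test. GART and ATIC, which add formyl groups in purine synthesis, did not overlap in FPKM. GART was at 17.1, 18.5 and 19.6 FPKM in Control and at 15.5, 15.4 and 14.9 in OX-LDL (log2 fold change -0.24, SE 0.07, adjusted p = 0.0701). ATIC was at 49.2, 49.2 and 47.8 FPKM in Control and at 46.8, 46.9 and 46.2 in OX-LDL (log2 fold change -0.03, SE 0.06, adjusted p = 0.763). TYMS, the thymidylate synthase, had a log2 fold change of 0.16 (SE 0.13, adjusted p = 0.48), with OX-LDL libraries on both sides of the Control libraries. ALDH1L1, the cytosolic homologue of ALDH1L2, had 4 counts in 1 Control library and 0 in the other 5 libraries, at or below the detection limit in both groups, so no fold is given. The summed level of the cytosolic members was 173 ± 1.48 FPKM in Control and 165 ± 13.4 in OX-LDL, or 95.3% of Control. The 3 members for uptake and polyglutamation, SLC19A1 (a folate carrier), FPGS (which adds glutamates) and GGH (which removes them), had log2 fold changes of 0.02 to 0.13 and adjusted p-values of 0.551 to 0.972. On the other strand, SLC19A1 overlaps COL18A1, which had up to 22915 counts in a library against 563 or more for SLC19A1.

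**Figure D4:**
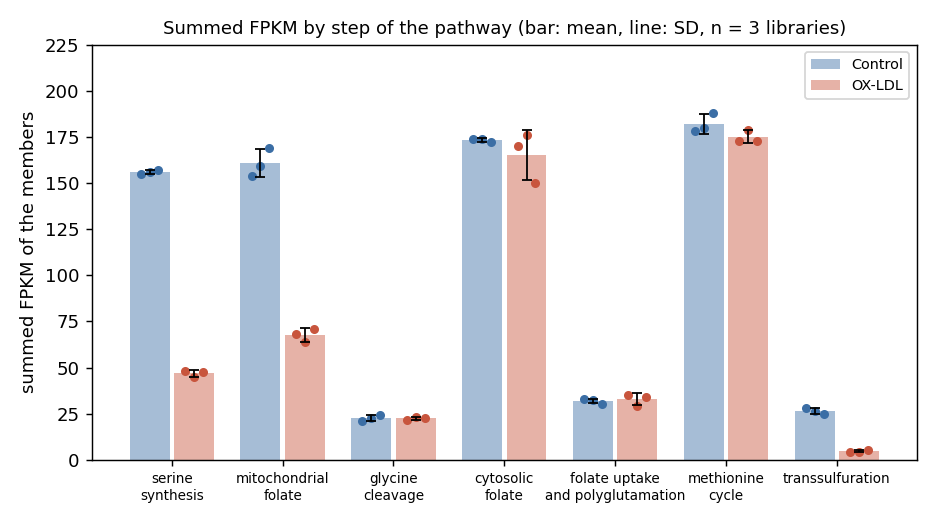
Summed FPKM of the members of each step, with bars for the mean, lines for the SD and points for the 3 libraries of each group. Serine synthesis, mitochondrial folate and transsulfuration were at 30.0%, 42.2% and 17.6% of Control in OX-LDL, while the other 4 steps were at 95.3% to 103%. The transsulfuration sum leaves out CBSL, a near-identical copy of CBS.

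Mitochondrial and cytosolic enzymes of the same reaction were set side by side as a ratio of FPKM within each library. The ratio of SHMT2 to SHMT1 was 4.56, 4.90 and 5.73 in Control and 1.77, 1.47 and 1.82 in OX-LDL, for a difference of -1.59 in the mean log2 ratio. The overlap of SHMT1 with SMCR8 limits this ratio too. The ratio of MTHFD2 to MTHFD1 was 3.12, 2.70 and 3.33 in Control and 1.52, 1.18 and 1.39 in OX-LDL (difference -1.17). That of MTHFD1L to MTHFD1 was 0.867, 0.981 and 0.997 in Control and 0.628, 0.583 and 0.734 in OX-LDL (difference -0.55). In each of the 3 pairs, the mitochondrial enzyme was lower relative to the cytosolic one in all OX-LDL libraries than in any of the Control libraries. Within the mitochondrion, the ratio of MTHFD2 to MTHFD2L was 118, 71.8 and 82.1 in Control and 37.5, 26.6 and 28.7 in OX-LDL (difference -1.53), so that MTHFD2 still exceeded MTHFD2L by 26.6 times or more. Each of these 4 differences had an exact permutation p of 0.1, two-sided, the smallest that 3 against 3 libraries can give, and 0.117 after adjustment over the 7 pairs tested.

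**Figure D5:**
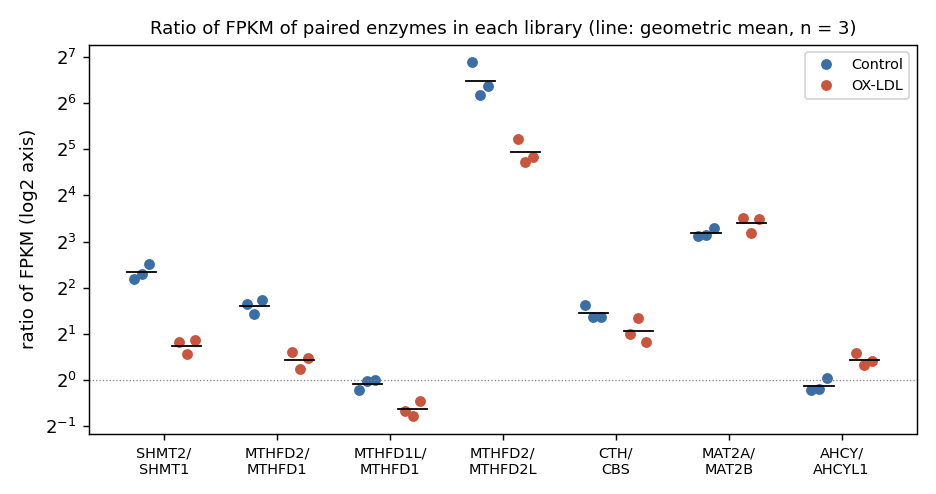
Ratio of the FPKM of paired members on a log2 axis, with a point for each library and a line for the geometric mean of each group (n = 3). The groups do not overlap for any pair but MAT2A/MAT2B, and all ratios but AHCY/AHCYL1 and MAT2A/MAT2B were lower in OX-LDL. CTH/CBS leaves out CBSL, a near-identical copy of CBS.

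In the methionine cycle, 0 of 6 members were called. MAT2A, the catalytic subunit that makes S-adenosylmethionine, was at 88.1, 86.9 and 94.1 FPKM in Control and at 97.2, 91.9 and 94.6 in OX-LDL, with overlapping groups (log2 fold change 0.11, SE 0.06, adjusted p = 0.299). It was the second highest member in Control and the highest in OX-LDL. MAT2B, its regulatory subunit, was at 10.1, 9.86 and 9.63 FPKM in Control and at 8.50, 10.02 and 8.43 in OX-LDL (log2 fold change -0.10, adjusted p = 0.525). The ratio of MAT2A to MAT2B differed by 0.21 in the mean log2 ratio (exact permutation p = 0.2, also 0.2 after adjustment), and by 0.32 without OX-LDL replicate 2.

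AHCY, which hydrolyses S-adenosylhomocysteine to homocysteine, was at 30.0, 31.6 and 33.8 FPKM in Control and at 32.3, 36.9 and 31.9 in OX-LDL (log2 fold change 0.12, adjusted p = 0.429). AHCYL1, an AHCY-like protein that binds the inositol trisphosphate receptor, was at 34.9, 36.2 and 32.7 FPKM in Control and at 21.6, 29.4 and 24.0 in OX-LDL. The groups of AHCYL1 did not overlap, with a log2 fold change of -0.44 (SE 0.12, adjusted p = 0.0581). Without OX-LDL replicate 2, it was -0.57 with an adjusted p of 0.0141. With all libraries, DESeq2 gave an adjusted p of 0.0169, and 5 of 14 alternative fits called AHCYL1 lower. The ratio of AHCY to AHCYL1 was 0.859, 0.873 and 1.04 in Control and 1.50, 1.25 and 1.33 in OX-LDL (difference 0.56, exact permutation p = 0.1, adjusted p = 0.117). MTRR, which reactivates methionine synthase, was at 7.35, 6.66 and 8.07 FPKM in Control and at 6.54, 3.96 and 6.20 in OX-LDL (log2 fold change -0.37, SE 0.19, adjusted p = 0.248). MTR, the methionine synthase itself, had a log2 fold change of -0.21 (SE 0.13, adjusted p = 0.353).

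Transsulfuration had the lowest levels relative to Control of the 7 steps. CTH (chr1:70411218-70439851, + strand), which cleaves cystathionine to cysteine, was at 21.3, 19.0 and 17.9 FPKM in Control and at 2.92, 3.20 and 3.29 in OX-LDL. CBS (chr21:43053191-43076378, - strand), which makes cystathionine from homocysteine and serine, was at 6.93, 7.35 and 6.96 FPKM in Control and at 1.46, 1.26 and 1.87 in OX-LDL. Both were far apart between the groups. CTH fell from 19.4 ± 1.73 to 3.14 ± 0.189 FPKM, for a log2 change of -2.60 (SE 0.11, adjusted p = 0.000209) and the largest fall among the members. CBS fell from 7.08 ± 0.234 to 1.53 ± 0.311 FPKM, for a log2 change of -2.17 (SE 0.15, adjusted p = 0.00113). The ratio of CTH to CBS was 3.08, 2.59 and 2.58 in Control and 2.00, 2.55 and 1.76 in OX-LDL (difference -0.40, exact permutation p = 0.1, adjusted p = 0.117). This ratio leaves out the level of CBSL, the copy of CBS described next, so it does not show by how much CTH exceeded CBS.

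The table also holds CBSL, a near-identical copy of CBS, and the counting could split reads between them, so the level of either alone is uncertain. CBSL had 5080, 4595 and 3989 counts in Control and 998, 1460 and 913 in OX-LDL, and CBS had 4138, 4458 and 3854 in Control and 737, 777 and 1154 in OX-LDL. Both entries were lower in OX-LDL, and CBSL had a log2 fold change of -1.97 (SE 0.18, adjusted p = 0.00196). Since the entries may share reads, they cannot be counted as separate falls. In FPKM, the level given to CBSL was above that of CBS in both groups. It was 13.2 ± 1.14 against 7.08 ± 0.234 in Control, and 3.30 ± 0.749 against 1.53 ± 0.311 in OX-LDL. With the counts of CBS and CBSL added together, an alternative chosen after seeing the data, the log2 fold change was -2.06 (SE 0.08, adjusted p = 0.00019).

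Over all 32 members, the summed level was 753 ± 11.5 FPKM in Control and 515 ± 9.83 in OX-LDL, or 68.4% of Control. The 9 members that fell went from 323 ± 6.27 to 100 ± 3.27 FPKM, while the other 23 were at 430 ± 5.62 FPKM in Control and 414 ± 11.1 in OX-LDL. The members together made up 3140 to 3180 ppm of the summed FPKM of all genes in the Control libraries and 2120 to 2180 in the OX-LDL libraries. Each of the 9 calls held in each of the 6 fits that left out 1 library, with an adjusted p of at most 0.0446.

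Another 71 genes of the neighbouring pathways were read from the same fit, of which 63 were tested. Of these, 9 fell and 11 rose, with a median log2 fold change of -0.03. Over all genes tested, 7.42% fell and 7.91% rose, and these shares stand beside the counts of each list below as well. Of the 20 calls, 6 held in each fit without 1 library. These 6 were ENOPH1, SMS, CHAC1, SQOR, PRPS1 and RRM1.

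Among other folate enzymes and carriers, 2 of 8 tested fell and 0 rose. SLC46A1, the proton-coupled folate carrier, fell from 3.12 ± 0.342 to 1.81 ± 0.162 FPKM (log2 fold change -0.75, adjusted p = 0.0114, and 0.0505 without OX-LDL replicate 3). Among other serine and glycine enzymes, 2 of 9 fell and 1 rose. SDS, which degrades serine to pyruvate, fell from 0.618 ± 0.0517 to 0.146 ± 0.0581 FPKM (log2 fold change -2.04, adjusted p = 0.0125), a p that became 0.0505 when Control replicate 2 was left out and 0.0535 when OX-LDL replicate 3 was left out. Of 10 other enzymes of the methionine cycle, cobalamin and betaine, 0 were called.

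Around cysteine and glutathione, 2 of 9 genes fell and 2 rose. CHAC1, which degrades glutathione, was at 7.06, 5.66 and 4.68 FPKM in Control and at 0.956, 0.787 and 1.12 in OX-LDL, and fell by a log2 fold change of -2.57 (SE 0.23, adjusted p = 0.00184). SQOR, which oxidizes hydrogen sulfide, a product of CBS and CTH, was at 5.21, 5.02 and 6.71 FPKM in Control and at 14.3, 11.7 and 13.8 in OX-LDL, and rose by a log2 fold change of 1.26 (SE 0.15, adjusted p = 0.00412). Both were clearly separated, in opposite directions. In methionine salvage and polyamine synthesis, 1 of 9 genes fell and 3 rose. ENOPH1, of the salvage pathway, fell from 47.7 ± 1.82 to 26.0 ± 1.36 FPKM (log2 fold change -0.84, adjusted p = 0.00184). SMS, the spermine synthase, rose from 180 ± 12.1 to 246 ± 5.12 FPKM (log2 fold change 0.48, adjusted p = 0.00852).

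Of 11 other enzymes of purine synthesis, 2 fell and 3 rose. PRPS1, which makes the ribose phosphate donor of purines, rose from 71.9 ± 9.24 to 168 ± 12.2 FPKM (log2 fold change 1.26, adjusted p = 0.00193). Of 7 genes of thymidylate synthesis and nucleotide reduction, 0 fell and 2 rose. RRM1, the large subunit of ribonucleotide reductase, rose from 31.5 ± 3.78 to 56.5 ± 3.51 FPKM (log2 fold change 0.87, adjusted p = 0.00513). RRM2, its small subunit, rose by a log2 fold change of 1.31 (adjusted p = 0.0168), a call that was lost without Control replicate 1 (0.0572) or Control replicate 2 (0.0688).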

How the data were processed

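Poly(A) RNA of 6 HK-2 samples was sequenced, and libraries were grouped by the treatment in their labels. The authors deposited 1 table of 58825 genes with estimated counts, which are whole numbers not scaled for library size, and with FPKM scaled by the authors for transcript length and library size. The submitters' processing notes name cutadapt 1.9, HISAT2 2.0.4, StringTie 1.3.4d and GRCh38. Which tool counted, and whether it used the strand that the dUTP libraries mark, is not given in the sources used here. Genes at 0 counts are listed at 0.0001 FPKM. Total counts were 74410201, 75701068 and 69334049 in Control and 62561347, 76797607 and 76766046 in OX-LDL. Counts of libraries of the same group, on the read pair scale, gave chi-square values per gene of 15.9 to 27.6, far above sampling noise, so all 6 were kept as separate samples.

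Counts were fitted with edgeR 4.0.16 in R 4.3.3 (TMM factors, glmQLFit and glmQLFTest, group as the only term) over 19510 genes, those that averaged 0.1 FPKM or more, with Benjamini-Hochberg adjustment over all of them. A call was an adjusted p-value under 0.05. Dividing each log2 fold change by the root of its F statistic gave its standard error. FPKM was used for levels and ratios, and fold changes are from the counts. Alternatives were DESeq2 1.42.0, its size factors, counts divided by 4, a minimum of 1 FPKM or none, limma 3.58.1 on log2(FPKM + 0.1) or log2(FPKM + 1), a replicate block and leaving out each library. Values are given in every library for members called at 2-fold, the serine synthesis enzymes, paired genes and members whose groups do not overlap, and from each neighbouring list at most 3 called genes with the smallest p-values were eligible to be named. The members and lists were chosen with earlier results of these data known. A called gene of the neighbouring lists is not reported here by name.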

Additional observations from a re-analysis of the deposited data

How the results depend on the processing

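The 9 falls kept their direction and their call in 127 of 127 fits of single genes under the alternatives, and 8 members were lower by more than 2-fold under each alternative. The count of members that fell was 9 to 12: 12 with DESeq2, 11 with a minimum of 1 FPKM, 11 with limma on either FPKM scale, and 9 to 12 when 1 library was left out. Over all genes tested, 2138 of 19510 fell with DESeq2 and 1483 of 12259 with a minimum of 1 FPKM. With limma, 1586 and 1585 of 19510 fell on the 2 scales, and 537 to 1470 fell when 1 library was left out. The count of members that rose was 0 except with DESeq2, where it was 1 (GLDC), beside 2292 of all genes. For members not called, 278 of 292 fits kept the result, and the other 14 were calls gained by GLDC, SHMT1, MTHFD1, MTHFS or AHCYL1. The median log2 fold change of transsulfuration was -1.99 with limma on log2(FPKM + 1), whose pseudocount shrinks the change of low genes. The median of glycine cleavage ran from -0.03 to 0.29 when 1 library was left out, and that of folate uptake from 0.02 to 0.18. The uptake median was 0.11 with a minimum of 1 FPKM and 0.03 with limma on either scale. All 63 recomputed log2 ratios kept their direction, but CTH to CBS was -0.62 with a pseudocount of 1.

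The labels number the libraries of both groups alike, but libraries of the same number were not seen to deviate together (correlations of -0.085, -0.031 and -0.003). Libraries of unlike number had correlations of -0.07 to 0.104. With 3 libraries a group, these values cannot exclude that libraries of the same number were handled together. With the replicate block, 9 members fell and 0 rose. Over all genes, 2991 were called, against 1636 with the replicate block and 1161 to 2943 when 1 library was left out. With 3 libraries a group, the ratios could not reach a p-value under 0.1.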
